A study of Mus musculus with 6 samples.

Results

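Kruppel-like factors are zinc-finger transcription factors, and 10 of their genes are described here in mouse kidney proximal tubules: Klf2, Klf3, Klf4, Klf5, Klf6, Klf9, Klf10, Klf11, Klf13 and Klf15. They were taken by symbol from a table of 32544 genes that holds 17 Klf genes in all, and all 10 were found. The study compared 3 DMSO with 3 AA libraries. In both, the later S2 and S3 parts of the proximal tubule were dissected from C57Bl/6 control mice 24 h after 1 injection, of the solvent dimethyl sulfoxide (DMSO) in one group and of aristolochic acid I (AA) in the other, at a stated dose of 3 mg/kg. Aristolochic acid I is a plant toxin that injures this part of the nephron and forms adducts on DNA. Each RNA sample pooled 5 to 10 tubules of a kidney. No age or sex is given here, and the labels do not say which libraries came from separate animals, so the tests measure the spread between these libraries only.

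Kruppel-like factors bind GC-rich and CACCC-containing DNA through 3 zinc fingers at their carboxyl end, and their amino ends recruit different partners. By those partners, Klf2, Klf4, Klf5 and Klf6 are placed with factors that bind acetyltransferases, Klf3 with those that bind the corepressor CtBP, and Klf9, Klf10, Klf11 and Klf13 with those that bind the corepressor Sin3A, while Klf15 stands outside these groups. Several members are immediate-early genes, whose mRNA rises quickly after growth factors, injury or stress. Klf9 and Klf15 are known targets of the glucocorticoid receptor, and Klf2 and Klf4 are best known in the kidney from endothelium.

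In AA tubules, 5 of the 10 genes were higher than in DMSO tubules: Klf6, Klf5, Klf4, Klf10 and Klf11. Klf15 was the 1 lower gene, and Klf2, Klf3, Klf9 and Klf13 made up the 4 that did not pass. A gene passed at an adjusted p under 0.05 in limma, a linear model fitted here to log2(CPM + 1) of all 14311 genes that reached 1 CPM in at least 3 libraries, where CPM is each gene's reads scaled to a fixed library total. Of all genes tested, 22.3% were higher and 8.66% were lower by the same rule. All 10 members were among the tested genes, but Klf5 reached 1 CPM in only 1 DMSO library and so entered the test through the AA libraries, where it is high. For 7 members the ranges of the groups were separate, every AA library being above every DMSO library in 5 and below in 2, against 33.4% and 13.0% of all tested genes. The median log2 fold change of the 10 members was 0.71, and that of all tested genes was 0.21. In bulk RNA, more cells of a type and more RNA per cell cannot be told apart, and this holds for every value below.

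**Figure D1:**
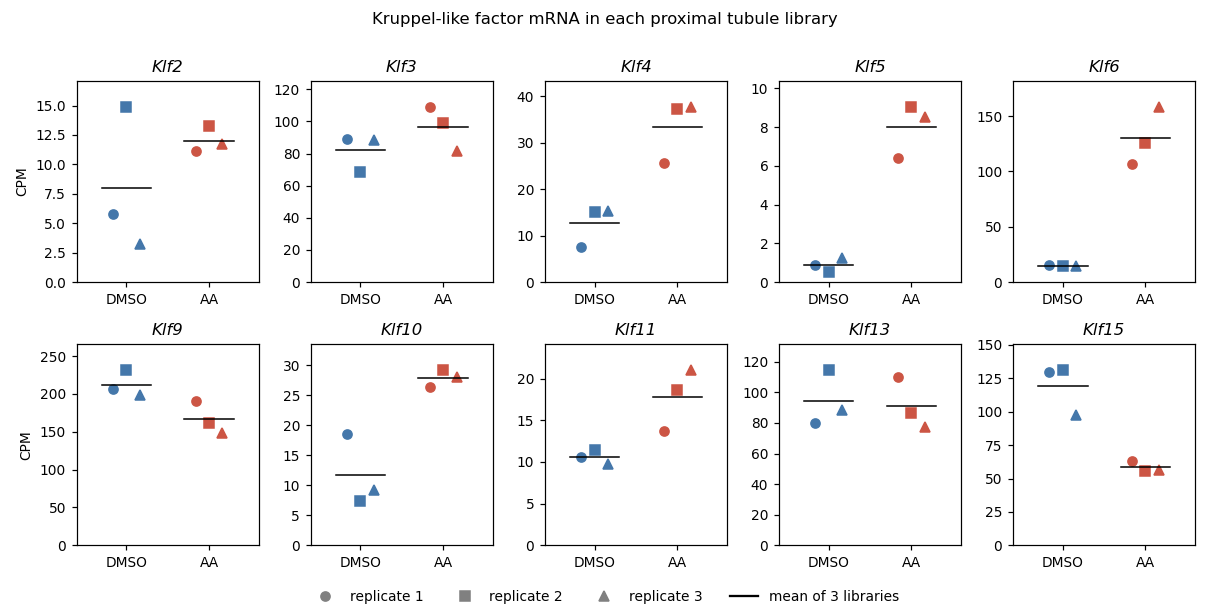
CPM of each member in the 3 DMSO and 3 AA libraries, with symbols for the replicates and a line at the mean; each vertical axis starts at 0 and has its own scale. Klf6 stays between 14.1 and 15.4 CPM in DMSO and lies between 106 and 158 CPM in AA, while the values of Klf2, Klf3 and Klf13 overlap between the groups.

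The libraries held 13304877 to 31136251 reads, and a member had 16 to 7190 reads in a library. The 14 proximal tubule markers, among them Lrp2, summed to 24815 to 32224 CPM in DMSO and to 13933 to 18358 CPM in AA, and each had reads in at least 1 library. Of these markers 1 was higher (Slc5a2, named after its values were seen), 6 were lower and 7 did not pass, against 1 higher and 2 lower in the fit with library sets and 0 higher and 8 lower with library medians equalised. By the naming rule the lower ones include Lrp2, Cubn, Slc27a2 and Slc22a7. Of all tested genes 22.3% were higher and 8.66% lower, or 11.2% and 16.9% with library medians equalised. DMSO replicates 1 and 2 stood apart from the other 4 libraries by more than 2 on the log2 scale in 40 tested genes, of which 39 were pseudogenes or predicted genes and 0 were Klf genes. A fit with a term for these library sets rests the AA difference on DMSO replicate 3 alone. Its values are given where they change the call of a member, and for some of the lists. For several other lists only the direction of change is given. More endothelial markers and fewer collecting duct markers passed as higher in that fit. The count of endothelial KLF2 and KLF4 targets was unchanged.

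The sequence just upstream of the transcription start is shown for 4 members, chosen because Klf6 and Klf4 were higher in AA, Klf15 was lower and Klf9 had the highest level of the family. Each run is the 250 bases before the RefSeq start, 5′ to 3′ on the gene's strand, in GRCm38.p6: chr13:5861239-5861488 plus strand for Klf6, chr4:55532476-55532725 minus strand for Klf4, chr6:90462326-90462575 plus strand for Klf15 and chr19:23140976-23141225 plus strand for Klf9. Capitals mark matches on either strand to CACCC (the box that Kruppel-like factors bind), to GGGCGG (a GC box) or to TGANTCA (N, any base).
Klf6: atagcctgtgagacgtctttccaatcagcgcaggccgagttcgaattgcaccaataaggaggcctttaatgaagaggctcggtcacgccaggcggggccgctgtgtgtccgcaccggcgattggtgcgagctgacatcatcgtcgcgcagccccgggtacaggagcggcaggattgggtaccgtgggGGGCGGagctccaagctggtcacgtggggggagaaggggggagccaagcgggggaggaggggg
Klf4: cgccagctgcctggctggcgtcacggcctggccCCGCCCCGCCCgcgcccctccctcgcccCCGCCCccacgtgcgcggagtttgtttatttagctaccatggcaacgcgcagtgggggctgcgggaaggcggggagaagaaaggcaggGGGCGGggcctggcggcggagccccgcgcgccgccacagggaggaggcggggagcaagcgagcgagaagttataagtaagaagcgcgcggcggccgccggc
Klf15: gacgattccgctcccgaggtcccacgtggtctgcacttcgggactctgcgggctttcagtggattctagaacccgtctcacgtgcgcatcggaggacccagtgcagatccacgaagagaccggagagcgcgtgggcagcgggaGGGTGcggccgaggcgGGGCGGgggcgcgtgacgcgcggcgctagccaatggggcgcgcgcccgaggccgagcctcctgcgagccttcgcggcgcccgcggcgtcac
Klf9: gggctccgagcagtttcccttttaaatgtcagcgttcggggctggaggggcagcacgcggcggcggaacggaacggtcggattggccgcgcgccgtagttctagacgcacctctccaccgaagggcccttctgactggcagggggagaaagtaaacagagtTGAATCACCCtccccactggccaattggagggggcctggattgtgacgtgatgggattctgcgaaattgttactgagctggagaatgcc

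The RefSeq table held a promoter for 8 members, all but Klf5 and Klf10. GGGCGG was found upstream of 7 of the 8, against 32.7% of all 32851 promoters in the table searched the same way. The one without it was Klf9. CACCC was found for 5 of the 8, against 52.0% of all promoters. The promoters of the members had 59.6% to 78.4% G and C, while the median of all promoters was 52.4%, and the part of base composition in these counts was not tested. TGANTCA, a looser pattern than the AP-1 site with C or G at N, occurred in 1 of the 8 and in 6.75% of all promoters. That match, in Klf9, reads TGAATCA, which has A at N, and shares bases with a CACCC match. The cyclic AMP response element TGACGTCA was found in 0 of the 8 and 1.55% of all promoters. AGAACA, the core of a glucocorticoid receptor site, was found in 0 of the 8 and 16.1% of all. The p53 decamer was found in 0 of the 8 and 7.13% of all. These are matches of letters in a 250-base window and say nothing of binding.

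Of the members grouped by their acetyltransferase partners, 3 of 4 were higher in AA, against 22.3% of all tested genes. Klf5 among them entered the test through its AA libraries. Outside the members, this partner group also holds Klf7, which was higher, and Klf1, which did not pass. Klf6, an injury-induced factor known to act on cell cycle and matrix genes, stood at 15.4, 14.5 and 14.1 CPM in DMSO replicates 1, 2 and 3, and at 106, 125 and 158 CPM in AA replicates 1, 2 and 3. The DMSO libraries were nearly level and every AA library was far above them. Mean CPM was 8.84 times as high in AA, a log2 difference of 3.04 with an SE of 0.17 (limma adjusted p = 1.82e-06). By log2 fold change it was in place 62 from the top of the 14311 tested genes and by p in place 9. Under the 18 other settings and left-out libraries that were run its log2 fold change lay between 2.76 and 3.18. Klf6 lies on chromosome 13 from 5861482 to 5870394 (mm10), plus strand.

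Klf5, a factor of proliferating epithelia and in the kidney of the collecting duct, was the lowest member in both groups. It had 0.879, 0.514 and 1.25 CPM in the DMSO libraries (21, 16 and 20 reads) and 6.39, 9.04 and 8.54 CPM in the AA libraries (85, 161 and 119 reads). The groups did not overlap. Mean CPM was 9.06 times as high in AA, and the log2 fold change, which understates low genes because 1 CPM is added, was 2.26 with an SE of 0.27. Since Klf5 met the filter on low values through its AA libraries, its p is given from the fit with no filter (limma adjusted p = 0.0034). The log2 fold change was 1.14 with 5 CPM added and 3.33 in limma's voom on whole reads.

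The 12 collecting duct markers summed to 124 to 183 CPM in DMSO and 228 to 326.5 CPM in AA, a 1.93-fold ratio of means. Of them 5 were higher and 0 lower, against 22.3% and 8.66% of all tested genes. Their median log2 fold change was 0.76, against 0.21 for all tested genes. The higher ones were Aqp2 (2.16), Fxyd4 (1.58), Gata3 (1.42), Hsd11b2 (1.14) and, named after its values were seen, Krt8 (0.71). Aqp2, the water channel of principal cells, rose from 8.29 ± 1.07 to 43.4 ± 20.9 CPM (SD, n = 3). With library medians equalised 4 of the 12 markers were higher, against 11.2% of all tested genes. The part of these markers in the Klf5 result was not tested.

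Klf4, a factor of epithelial differentiation and of endothelium, was at 7.57, 15.2 and 15.2 CPM in DMSO and at 25.6, 37.2 and 37.7 CPM in AA. Replicate 1 was the lowest of each group, and the groups did not overlap. AA exceeded DMSO by 1.38 on the log2 scale (SE 0.27, limma adjusted p = 0.00343). In the fit with library sets this was 1.07 and no longer passed (limma adjusted p = 0.0751).

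Klf2, a flow-responsive factor of endothelium, had 5.82, 14.9 and 3.26 CPM in DMSO, against 11.1, 13.2 and 11.7 CPM in AA. DMSO replicate 2 was above every AA library. Its log2 fold change of 0.75 had an SE of 0.39 and did not pass (limma adjusted p = 0.162). Leaving out DMSO replicate 2 gave 1.27, which passed (limma adjusted p = 0.00978), and leaving out DMSO replicate 3 gave 0.32. The fit with library sets gave 1.61, which also passed (limma adjusted p = 0.0306).

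The 13 endothelial markers summed to 450, 531 and 352 CPM in DMSO replicates 1, 2 and 3 and to 641, 656 and 551 CPM in the AA libraries, a 1.39-fold ratio of means. In DMSO the order of the libraries was the same for this sum and for Klf2, with replicate 2 the highest and replicate 3 the lowest. In AA the order differed: replicate 2 was the highest for both, but replicate 3 was the lowest for the sum and replicate 1 for Klf2. Klf4 was as high in DMSO replicate 3 as in DMSO replicate 2. Of the 13 markers 4 were higher and 0 lower: Tek, Cdh5, Pecam1 and Ptprb, with log2 fold changes of 0.84, 0.85, 0.61 and 0.57. Of all tested genes 22.3% were higher. With library medians equalised 2 of the 13 were higher, against 11.2% of all tested genes. In the fit with library sets more of the 13 passed than as deposited. The ratio of mean CPM was 2.65 for Klf4 and 1.51 for Klf2. The part of endothelial RNA in either was not tested. Of 7 tested genes of the list of endothelial KLF2 and KLF4 targets, 4 were higher and 0 lower, with a median of 0.84: Tek, the adhesion molecule gene Vcam1 (0.91), the lipid receptor gene S1pr1 (0.86) and Nos3, the endothelial nitric oxide synthase (0.84). The share of all tested genes that were higher was 22.3%, and their median was 0.21. With library medians equalised 1 of the 7 passed, against 11.2% of all tested genes.

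Klf3, a repressor that works through CtBP, did not pass. It had 89.3, 68.8 and 88.5 CPM in DMSO and 109, 99.3 and 81.7 CPM in AA, with overlapping groups. Its log2 fold change was 0.23 with an SE of 0.16 (limma adjusted p = 0.285), and it turned to -0.03 once library medians were equalised.

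The members of the Sin3A group were divided. Klf10, known as an early gene of TGF-beta signalling, was higher, at 18.6, 7.39 and 9.27 CPM in DMSO and 26.4, 29.1 and 28.0 CPM in AA. DMSO replicate 1 was well above the other controls, yet below every AA library, and the AA libraries lay close together. AA exceeded DMSO by 1.28 on the log2 scale (SE 0.28, limma adjusted p = 0.00636), and this passed under all 18 other settings and left-out libraries, from 1.009 to 1.63.

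Klf11, a relative of Klf10 that TGF-beta also induces, was at 10.6, 11.5 and 9.78 CPM in DMSO and at 13.7, 18.6 and 20.97 CPM in AA. The groups did not overlap, and AA replicate 1 was the nearest to the controls. The difference of 0.67 on the log2 scale (SE 0.21, limma adjusted p = 0.0312) was lost in 10 of the 18 alternatives. Among them, limma's adjusted p was 0.132 once library medians were equalised and 0.126 in the fit with library sets. It was 0.0658 without DMSO replicate 1, 0.073 without DMSO replicate 3, 0.103 without AA replicate 2 and 0.123 without AA replicate 3.

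Klf9, a glucocorticoid- and thyroid-responsive repressor, was the most abundant member in CPM. It had 207, 231 and 198 CPM in DMSO and 191, 162 and 148 CPM in AA. Every AA library was below every DMSO library. Its log2 fold change of -0.35, with an SE of 0.14, did not pass (limma adjusted p = 0.0799). Equalising library medians gave -0.61, which passed (limma adjusted p = 0.0136). Klf13, a factor best known from lymphocytes and heart, had 80.3, 114 and 88.7 CPM in DMSO and 110, 86.6 and 77.4 CPM in AA. The groups overlapped, and the log2 difference was -0.05 with an SE of 0.17 (limma adjusted p = 0.859). The log2 difference of Klf13 was -0.31 with library medians equalised, -0.26 with TMM scaling and -0.27 in voom with TMM. It was 0.03 in the fit with library sets, 0.10 without DMSO replicate 2 and 0.06 without AA replicate 3. The gene E030018B13Rik overlaps Klf13 on the opposite strand and was at 0.627 to 3.18 CPM.

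Klf15, a regulator of amino acid and glucose metabolism and of podocyte differentiation, was the member that fell. It had 129, 131 and 97.8 CPM in DMSO and 63.1, 55.6 and 56.2 CPM in AA. DMSO replicate 3 was the lowest control and still above every AA library. Mean CPM was 2.05 times as high in DMSO as in AA, a log2 difference of -1.011 (SE 0.15, limma adjusted p = 0.000866). Against DMSO replicate 3 alone the difference was -0.74 on the log2 scale, and across all 18 alternatives, in each of which it passed, the range was -1.27 to -0.74. The summed proximal tubule markers fell beside it, with an AA to DMSO ratio of 0.569, and Klf15 had one of 0.489; the part of that shift in Klf15 was not tested. Klf15 lies on chromosome 6 from 90462576 to 90475238 (mm10), plus strand.

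**Figure D2:**
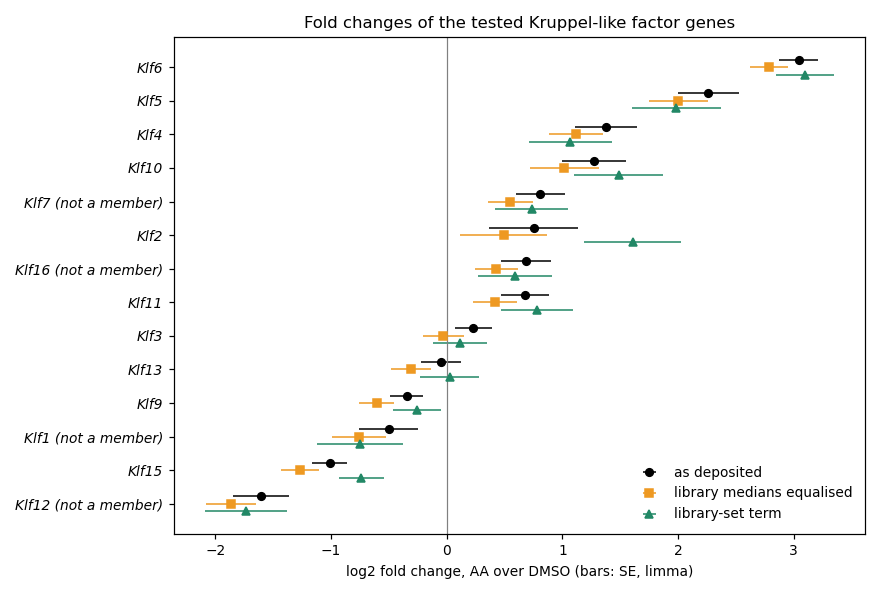
Log2 fold change of AA over DMSO on the log2(CPM + 1) scale with its SE for the 14 tested Klf genes, in the deposited scaling, with library medians equalised, and with a term that sets DMSO replicates 1 and 2 apart. Klf6 is near 3 in each. Klf2 moves from 0.75 to 1.61 with the library-set term. Klf3 ranges from -0.03 to 0.23 and Klf13 from -0.31 to 0.03.

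Over all tested genes the median difference was 0.21 in log2 units as deposited and -0.05 with library medians equalised, and this scaling moved every gene by a like amount. After equalising, 4 members were higher (Klf4, Klf5, Klf6 and Klf10) and 2 were lower (Klf9 and Klf15), against 11.2% and 16.9% of all tested genes. In the fit with library sets, 4 were higher (Klf2, Klf5, Klf6 and Klf10) and 1 was lower (Klf15), against 7.39% and 2.96%.

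Levels of different genes were compared after division by exonic length, as CPM per kb of exon. This length is the union of the exons of all annotated transcripts of a gene, and the order of levels can depend on that choice. In DMSO, Klf9 (44.0 ± 3.52, SD, n = 3) and Klf15 (42.8 ± 6.70) were the highest and did not differ beyond their spread. They were followed without overlap by Klf13 (12.5 ± 2.36) and then, also without overlap, by Klf3 (7.31 ± 1.03). Klf2, Klf4, Klf6, Klf10 and Klf11 followed between 4.32 and 2.44 CPM per kb, each overlapping its neighbour in that order. The range of Klf2 also overlapped that of Klf3. Klf5 was last at 0.170 ± 0.071. In AA, Klf6 came to the second place (29.6 ± 5.96), overlapping Klf9 (34.7 ± 4.56) and above every value of Klf15 (20.9 ± 1.502). Klf13 and Klf4 overlapped, at 12.1 ± 2.22 and 10.99 ± 2.24, Klf4 overlapped Klf3 (8.60 ± 1.23), and Klf5 was still last at 1.54 ± 0.271.

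**Figure D3:**
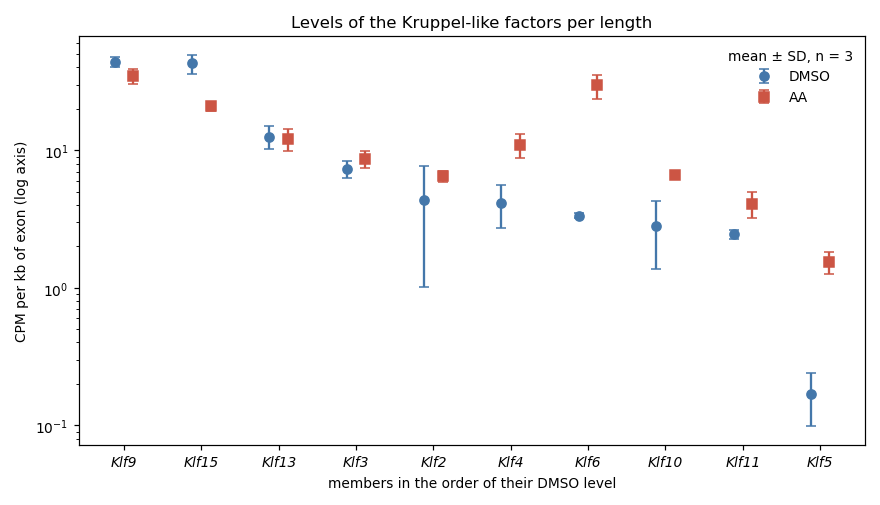
Mean and SD of CPM per kb of exon for each member in DMSO and AA (n = 3 libraries each, log axis), in the order of the DMSO level. Klf6 goes from 3.34 to 29.6 CPM per kb and Klf5 from 0.170 to 1.54, while Klf15 goes from 42.8 to 20.9.

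Without division by length, all 17 Klf genes summed to 599, 655 and 571 CPM in the DMSO libraries. In AA they summed to 708, 693 and 669 CPM, and every AA library was above every DMSO library. The same separation held for 33.4% of all tested genes. As deposited, tested genes had a median AA to DMSO difference of 0.21 on the log2 scale. The part of that shift in the summed CPM was not tested. The sum of the 17 Klf genes per kb of exon did not separate the groups. It was 132, 148 and 122 CPM per kb in the DMSO libraries and 147, 148 and 147 CPM per kb in the AA libraries, which overlap (two-sided exact permutation test, p = 0.4, n = 3 each; the smallest p that 3 against 3 allows is 0.1). Klf9 and Klf15 made up 32.9% ± 0.800 and 31.8% ± 3.16 of that sum in DMSO (SD, n = 3) and 23.6% ± 3.11 and 14.2% ± 1.05 in AA. Klf6 made up 2.51% ± 0.236 in DMSO and 20.1% ± 4.10 in AA. Within a library, the level of Klf6 per kb was 0.0757, 0.0707 and 0.0917 times that of Klf15 in DMSO and 1.07, 1.43 and 1.79 times that of Klf15 in AA, so the order of this pair was reversed in each AA library.

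**Figure D4:**
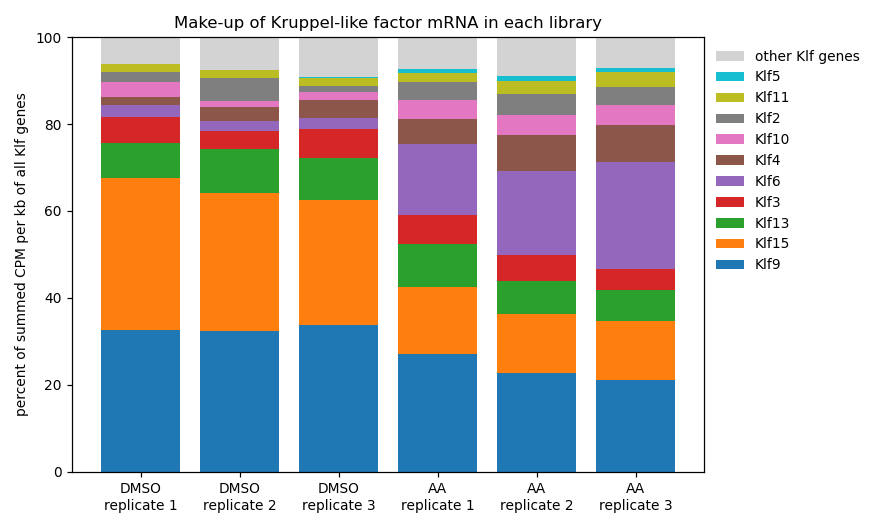
Stacked bars of the percent of the summed CPM per kb of all 17 Klf genes that each member, and the other Klf genes together, hold in each library. The Klf6 band is 2.24% to 2.66% in the DMSO bars and 16.5% to 24.6% in the AA bars, and the Klf15 band is 28.8% to 35.1% and 13.5% to 15.4%.

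The other 7 Klf genes of the table, which the rule left out, held 4 tested ones, of which 2 passed as higher and 1 as lower. For all tested genes these shares were 22.3% and 8.66%. The lower one of the 4 was Klf12, a CtBP-binding repressor. It had 11.9, 15.5 and 15.7 CPM in DMSO and 4.13, 5.16 and 3.02 CPM in AA. The groups were far apart, by -1.61 on the log2 scale (SE 0.24, limma adjusted p = 0.000903), and it passed in all 18 alternatives. Klf7 (0.81, SE 0.21, limma adjusted p = 0.0159) and Klf16 (0.69, SE 0.21, limma adjusted p = 0.0321) were higher, and neither passed in several alternatives. The limma adjusted p of Klf7 and Klf16 was 0.0595 and 0.114 once library medians were equalised, and 0.153 and 0.257 in the fit with library sets. It was 0.0515 and 0.101 without DMSO replicate 1, and 0.0773 and 0.107 without AA replicate 2. Klf16 was also lost without AA replicate 1 (0.0617) and AA replicate 3 (0.072). Klf1 did not pass (-0.50, SE 0.25, limma adjusted p = 0.154). It passed as lower at -0.76 once library medians were equalised and at -0.83 with quantile scaling.

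Of the sister family of Sp factors, which share the 3 zinc fingers, 7 of 9 genes were tested. Of these, 3 passed as higher and 1 as lower, against 22.3% and 8.66% of all tested genes. Sp6, a factor known from teeth and skin, had 0.460, 0.257 and 0.877 CPM in DMSO and 6.61, 11.3 and 14.4 CPM in AA. It reached 1 CPM in the AA libraries only, so it entered the test through them, and its log2 fold change of 2.90 (SE 0.31) is given as a value. Sp4 (0.77) and Sp3 (0.52) were higher and Sp5 (-0.67) was lower (limma adjusted p = 0.0224, 0.0355 and 0.0315). In the fit with library sets, Sp4, Sp3 and Sp5 did not pass. Sp4 and Sp3 were also lost under each rescaling: their limma adjusted p was 0.0882 and 0.281 with library medians equalised, 0.154 and 0.111 with quantile scaling, and 0.0568 and 0.197 with TMM scaling, while Sp5 passed in those 3. Leaving out 1 library at a time, Sp4 was lost without DMSO replicate 1, AA replicate 1 or AA replicate 2. Sp3 was lost without DMSO replicate 1 or 2 or AA replicate 2 or 3, and Sp5 without DMSO replicate 2 or 3 or AA replicate 2 or 3.

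The lists of genes around the members are read against the 22.3% of all tested genes that were higher and the 8.66% that were lower. With library medians equalised these shares were 11.2% and 16.9%. Of 18 tested TGF-beta pathway genes, the setting of Klf10 and Klf11, 5 were higher and 0 lower, a share near that background, with a median of 0.33. With library medians equalised 4 were higher and 1 lower. The count of higher genes also fell in the fit with library sets, where fewer of all tested genes passed. The 4 named by the rule were the corepressor genes Tgif1 (1.37) and Skil (1.12), the signal transducer Smad3 (0.72) and its inhibitor Smad7 (0.69). Of 14 co-regulators of Kruppel-like factors, 4 were higher and 1 lower, also near the background, with a median of 0.17. These counts were 2 and 1 with library medians equalised, and the count of higher ones fell in the fit with library sets too. The higher ones were Nfyb (1.12), Fbxw7 (0.98), a ubiquitin ligase subunit that acts on Klf5, the deacetylase gene Hdac2 (0.51) and, named after its values were seen, Sin3b (0.52). Sap30, a subunit of the Sin3 complex, fell by 0.80 on the log2 scale.

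Of 18 tested genes of branched chain amino acid and proline breakdown, which Klf15 is known to regulate, 0 were higher and 2 were lower. The lower share was near the 8.66% of all tested genes, and the median log2 fold change was 0.01. Bcat2, the mitochondrial branched chain aminotransferase, went from 68.9 ± 6.17 to 46.6 ± 5.14 CPM (SD, n = 3), which is -0.56 on the log2 scale (limma adjusted p = 0.0152). Prodh, proline dehydrogenase, was lower by a log2 value of -0.64 (limma adjusted p = 0.034). With library medians equalised 6 were lower, against 16.9% of all tested genes. In the fit with library sets neither Bcat2 nor Prodh passed. Of 14 genes of the glucocorticoid receptor and its targets, 3 were higher and 1 lower, near the background shares, with a median of 0.47. Once library medians were equalised, 2 passed as higher and 3 as lower, against 11.2% and 16.9% of all tested genes. In the fit with library sets, which rests on DMSO replicate 3 alone, more of this list passed as higher. Fewer of all tested genes did so in that fit. As deposited, the called genes were as follows. The higher ones were the metal-binding Mt1 (1.52) and Mt2 (1.41) and Hsd11b2 (1.14), which is also on the collecting duct list, and Errfi1, an inhibitor of the EGF receptor, was lower (-0.73).

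Of 11 genes named in the literature as Klf6 or Klf5 targets, 2 passed as higher and 1 as lower. Both were near the shares of all tested genes, and the median was 0.36. Cdkn1a, the cell cycle inhibitor p21, had a log2 fold change of 6.64 and Pdgfa, a growth factor gene, one of 1.35. Igf1r, the receptor of insulin-like growth factor, fell by 0.90 on the log2 scale. Cdkn1a is also a known target of p53.

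Markers of other cells are set beside the 22.3% of all tested genes that were higher as deposited. With library medians equalised 11.2% were higher. The shares of higher genes for leukocytes, ascending limb and distal tubule, and podocytes were near the 22.3% as deposited. The summed leukocyte markers and the summed ascending limb and distal tubule markers overlapped between the groups. Leukocyte markers summed to 192 to 279 CPM in DMSO and 181 to 239 CPM in AA, with 3 of 10 tested higher (Cd68, Lyz2 and C1qb). Their median log2 fold change was 0.53 while the ratio of the summed means was 0.936. Markers of the thick ascending limb and distal convoluted tubule summed to 239 to 535 CPM and 348 to 1392 CPM, with 2 of 8 higher (Cldn19 and Kcnj1). Markers of fibroblasts, pericytes and smooth muscle summed to 104 to 156 CPM and 200.5 to 249 CPM, with 5 of 11 higher (Pdgfrb, Pdgfra, Rgs5, Dcn and, named after its values were seen, Tagln). Of this list 3 were higher with library medians equalised or TMM scaling, 2 with quantile scaling and 0 in the fit with library sets. Those of podocytes and parietal cells summed to 76.0 to 97.5 CPM and 126 to 163 CPM, with 2 of 7 higher (Synpo and Cldn1). In the fit with library sets, fewer leukocyte and podocyte markers and more of the ascending limb and distal tubule were higher. Fewer of all tested genes passed in that fit. As deposited, in these 4 lists 0 markers were lower and 0 were without reads in every library, and their part in the values of the members was not tested.

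Features of the genes were set beside the fold changes as a description. The members span 2.62 kb (Klf2) to 52.6 kb (Klf13), and the median of tested coding genes was 24.9 kb. Klf3 (29.5 kb), Klf9 (26.9 kb) and Klf13 were longer than that median and the other members shorter, while Klf12 spans 414 kb. Over the 14 tested Klf genes the Spearman correlation of log2 fold change with genomic length was -0.38, and -0.22 over 13 without Klf12. In the 3′ UTR of the longest coding transcript, the letters ATTTA, which occur in mRNAs of short life, were more frequent per kb than the median of tested coding genes (1.29) for 8 members and less frequent for 2 (Klf4 with 1.02 and Klf13 with 0.58). Klf10 had the most among the members, with 2.68 per kb, and Klf6 had 2.25. Over the 14 genes the Spearman correlation with log2 fold change was 0.47. The 14 points share the same 6 libraries and some share sequence, and no test is given.

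Genes whose log2 values followed a member most closely over the 6 libraries were found among 12800 tested coding genes. For Klf6 they were Cdt1, Fam216a and Ddx21, with Pearson correlations of 0.9995, 0.9994 and 0.9989. For Klf15 they were Slc35b4, Pde11a and Osbpl9 (0.9965, 0.9957 and 0.9955), and for Klf5 they were Dsel, Tmem17 and Fgfr1op2 (0.9976, 0.9976 and 0.9975). The 6 points fall into 2 groups of 3 libraries and share them with every other gene.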

How the data were processed

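RNA was sequenced from 6 libraries of pooled S2 and S3 tubules, made with a stranded mRNA kit per the labels' protocols. bcl2fastq 2.19, kallisto and mm10 are named in the submitters' processing notes. For the annotation, the summing to genes and the strand setting, nothing is stated (not given in the sources used here). As deposited by the authors, the table holds log10(CPM + 1) values: with the log undone each library sums to the same CPM total, and whole reads were recovered for every value within 0.1 read. The table had 0 columns of other samples. Columns were matched to samples by title.

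Values were undone to CPM and tested as log2(CPM + 1) with limma 3.58.1 in R 4.3.3 (variance trend, two-sided, Benjamini-Hochberg over all 14311 genes with at least 1 CPM in 3 libraries, called under 0.05), and the fit was tested on simulated data. Levels of different genes were divided by exonic length from GENCODE M21, which also gave positions. Promoters came from RefSeq, GRCm38.p6. The depth of 13304877 to 31136251 reads makes 1 read worth 0.0321 to 0.0752 CPM.

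Alternatives changed the scaling, filter, pseudocount, variance, replicate block, library sets, left-out library or test. The design assumed a log CPM table without its log base. Named genes were the members, called genes of the Klf and Sp families, up to 4 called genes of each list by smallest adjusted p, and the 3 genes most alike to a member. The members and lists were chosen with earlier results of these data known. The values of 1 gene of the TGF-beta list are not reported here.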

Additional observations from a re-analysis of the deposited data

How the results depend on the processing

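Klf5, Klf6, Klf10, Klf12 and Klf15 kept their direction and their call in all 18 alternatives each. With library medians equalised, Klf3 was -0.028, Klf9 -0.61 and Klf11 0.42; with TMM scaling (trimmed means), Klf9 was -0.56 and Klf11 0.47; in voom with TMM, Klf9 was -0.56 and Klf11 0.50. Klf9 passed in these 3 settings, which made 2 members lower, and Klf11 did not. Klf11 was also lost at 0.40 with quantile scaling and at 0.67 with no filter on low values. In the fit with library sets, Klf2 was 1.61 and passed, Klf4 was 1.07 and Klf11 0.78 and did not, Klf13 was 0.025, and 1481 genes were called. Sp2 turned to -0.031 with medians equalised and -0.063 with quantile scaling. Leaving out 1 library at a time moved Klf2 between 0.32 and 1.27, Klf11 between 0.55 and 0.84, Klf13 between -0.19 and 0.10, and the number of genes called between 2484 (without AA replicate 2) and 3969, against 4426 with all libraries. The cause of these changes was not tested. Calls were 3187 higher and 1239 lower as deposited, 1606 and 2422 with medians equalised, 1822 and 2077 with quantile scaling, and 1889 and 2095 with TMM.

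Libraries with the same number did not deviate together (correlations of -0.11, -0.16 and -0.02), so the numbers were not taken as pairs. With a replicate block, 3813 genes were called, and 5 members were higher and 1 lower, as without it; Klf6 was 3.04 and Klf15 -1.011 in that fit. Sp3 was lost under the block. The count tests of 2 other packages planned for recovered reads were not run, and voom, chosen after seeing the data, was used on those reads. Klf5 rests on 16 to 21 reads in a DMSO library, so its level there is the least precise of the members.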

Other observations

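The 3 Klf genes too low to test were Klf8, Klf14 and Klf17. Klf8, a CtBP-binding repressor, had 7, 7 and 1 reads in the DMSO libraries and 1, 11 and 10 reads in the AA libraries. Klf17 had 0, 0 and 2 reads in DMSO and 1 read in each AA library. Klf14 had 0 reads in all 6 libraries, which allows up to 0.0964 to 0.225 CPM per library (3 reads, counting error only).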
